A study of Canis lupus familiaris with 29 samples.

Results

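The libraries described here are the 14 B-cell lymphomas at the extremes of a score built from T-cell tumour genes, 7 with the highest and 7 with the lowest score, out of 20 B-cell lymphomas and 29 lymphomas in all. The series holds RNA sequencing libraries of lymphomas from Golden Retrievers, with 20 tumours labelled B-cell and 9 labelled T-cell. Every dog is of the same breed and no treatment is given in the labels. The labels do not say how the phenotype was determined, where each tumour was sampled or whether any 2 libraries share a dog, and the p-values reflect only how much these libraries vary. The 7 high-score dogs were 5 females and 2 males aged 4.2 to 10.7 years at diagnosis, and the 7 low-score dogs were 2 females and 5 males aged 2 to 11.3 years. In each set 6 of 7 dogs were neutered. The 9 T-cell tumours and the 6 B-cell tumours between the sets served as other groups. The T-cell dogs, mostly female and both intact and neutered, were aged 4.5 to 11.9 years. Of the 6 dogs between the sets 2 were female and 5 neutered, and ages ran from 3.7 to 14 years. Females were the larger share of high-score and T-cell dogs and the smaller share of low-score dogs and those between. The part of sex in the T-cell comparison was not tested.

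The score was the mean log2(FPKM + 1) over 118 genes. FPKM is the number of fragments scaled to transcript length and to the library's mapped fragments. A gene entered the score when 5 or more of the 29 libraries held 1 FPKM or more and its lowest T-cell library lay above its highest B-cell library. Both the genes and the libraries were thus selected on measured values, the FPKM of these same libraries, and the score and its genes are given as a description without a test. Genes carry only Ensembl IDs in the table, and 0 of its 16382 IDs could be paired with a symbol. The score could not be checked against known T-cell markers for that reason, and the sets are called high-score and low-score below.

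As background, a lymphoma is a tumour of lymphocytes, and its mass also holds cells that are not malignant. In B-cell lymphoma these commonly include T cells, macrophages, blood vessels and the fibroblastic stroma of the lymph node. RNA from bulk tissue mixes all of them. In such data fewer cells of a type and less RNA per cell cannot be told apart.

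The 20 B-cell libraries formed a continuous series of scores with no wide gap. In the high-score set the score ran from 3.52 over a median of 3.73 to 3.96, and in the low-score set from 2.98 over a median of 3.19 to 3.38. The 6 libraries between ran from 3.42 to 3.50. Just inside the high-score set stood B-cell library 8 at 3.519, and just outside it B-cell library 12 at 3.504. At the lower edge B-cell library 18 was inside the low-score set at 3.38, and B-cell library 16 was outside it at 3.42. All B-cell libraries stayed well below the T-cell tumours, which ran from 4.80 over a median of 5.16 to 5.40.

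**Figure D1:**
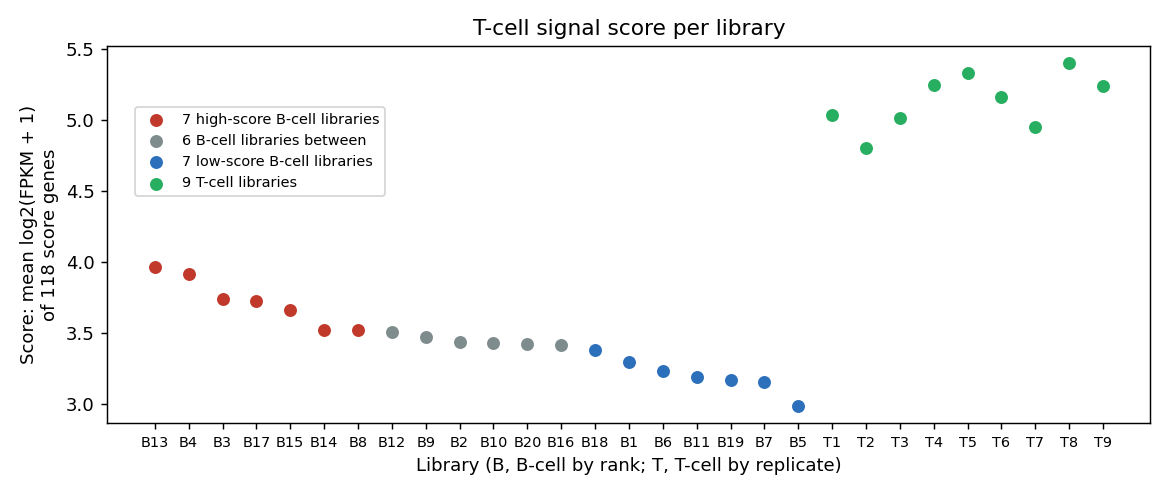
Score of each library, the mean log2(FPKM + 1) over 118 genes, with B-cell libraries in order of rank and T-cell libraries by replicate number. The B-cell points descend from 3.96 to 2.98 without a wide step, and the lowest T-cell library lies at 4.80.

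The score genes were not silent in low-score tumours. With 1 FPKM as the limit, 98 of the 118 genes reached it in all 7 low-score libraries and 105 in all 7 high-score libraries. For the median gene, mean FPKM in low-score tumours was 28.3% of the T-cell mean (quartiles 14.5% and 45.6%), and in high-score tumours 41.1% (quartiles 23.1% and 52.7%). The difference was spread unevenly over the genes. Its median was 0.39 on the log2 scale, its range ran from -0.53 to 2.37, and 18 of 118 genes were higher in the high-score set by at least 1. The mean was higher in the high-score set for 112 genes and lower for 6. These genes took 0.508% ± 0.0697 (SD, n = 7) of the summed FPKM of a high-score library, 0.382% ± 0.0847 (SD, n = 7) of a low-score library and, in T-cell tumours, 1.75% ± 0.485 (SD, n = 9). The shares of the high-score set, from 0.431% to 0.622%, overlapped those of the low-score set, from 0.224% to 0.474%.

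The sets were next compared in 8 measures that the score did not use. Age averaged 7.70 ± 2.56 years (SD, n = 7) in high-score and 8.41 ± 3.20 years (SD, n = 7) in low-score dogs, a gap smaller than either SD (exact permutation test, two-sided, p = 0.663). Relative sequencing depth, read from the steps of the lowest FPKM values and set to 1 in B-cell library 1, averaged 1.44 ± 0.408 and 1.55 ± 0.416 (SD, n = 7 each; exact permutation test, p = 0.632). Absolute depth is unknown. The number of genes listed at 0 differed most, at 3015 ± 215 in high-score and 3311 ± 251 in low-score libraries (SD, n = 7 each; exact permutation test, p = 0.0402), but it did not pass adjustment over the 8 measures (adjusted p = 0.322). Summed FPKM (p = 0.847) and the share taken by the 10 most abundant genes (p = 0.811) also differed by less than the spread in exact permutation tests. With 7 libraries against 7 the smallest p these permutation tests allow is 0.000583. Females made up 5 of 7 high-score and 2 of 7 low-score dogs (Fisher's exact test, p = 0.286). The phenotype label was written with a hyphen for 2 and 4 of 7 libraries (Fisher's exact test, p = 0.592).

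The main comparison asked which other genes differ between high-score and low-score B-cell tumours once the 118 score genes are left out. In limma fits of log2(FPKM + 1) to 11434 genes, 1684 passed an adjusted p of 0.05 (14.7%; Benjamini-Hochberg). High-score tumours had 1495 genes higher (13.1% of genes tested) and 189 lower (1.65%). The rise was large for many genes and the fall small. Among the genes that rose, the median log2 change was 1.02 and 772 (51.6%) changed at least 2-fold, while among those that fell the median was -0.61 and 9 (4.76%) changed at least 2-fold. At least 4-fold changes were seen for 27 genes that rose and 0 that fell. Because genes that differ from low to high score can vary with the score genes across all B-cell tumours, these calls describe what moved with the score and not an effect of a treatment.

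The balance of higher to lower calls depended on scaling between libraries. As deposited, 88.8% of the called genes were higher in high-score tumours. Median-of-ratios scaling gave 1229 higher and 543 lower (69.4% higher), and quantile normalization 667 higher and 589 lower (53.1% higher). Over all tested genes the log2 change had a median of 0.08 in the deposited values, -0.04 with median-of-ratios scaling and -0.07 with quantile normalization. Of the 1495 genes, 607 (40.6%) were called higher under all 3 scalings, and 176 of the 189 genes (93.1%) were called lower under all 3. The direction was kept under both other scalings by 1494 of the 1495 and by all 189, in the same libraries. Changes of at least 2-fold past the threshold numbered 611 higher and 31 lower with median-of-ratios scaling, and 314 higher and 81 lower with quantile normalization.

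Sex and single libraries also moved these counts. With sex as a covariate 895 genes were higher and 63 lower, while the median log2 change was 0.97 over the 1495 genes and -0.59 over the 189, close to 1.02 and -0.61 without it. Among libraries with a space in the phenotype label, 5 high-score against 3 low-score, 5 genes were higher and 2 lower by limma, with 2307 genes at an unadjusted p under 0.05. The change there was as large, with a median log2 change of 1.02 over the 1495 genes and -0.55 over the 189, but those 8 libraries are part of the 14 on which the genes were called. Leaving out 1 library at a time gave 1074 to 1642 genes higher. The number of genes called lower, 189 with all 14 libraries, was less stable. It was 58 without B-cell library 13, 89 without 4, 123 without 8, 116 without 1, 122 without 6, 101 without 11 and 85 without 19. Without B-cell library 18 it was 304, and without 7 it was 373.

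**Figure D2:**
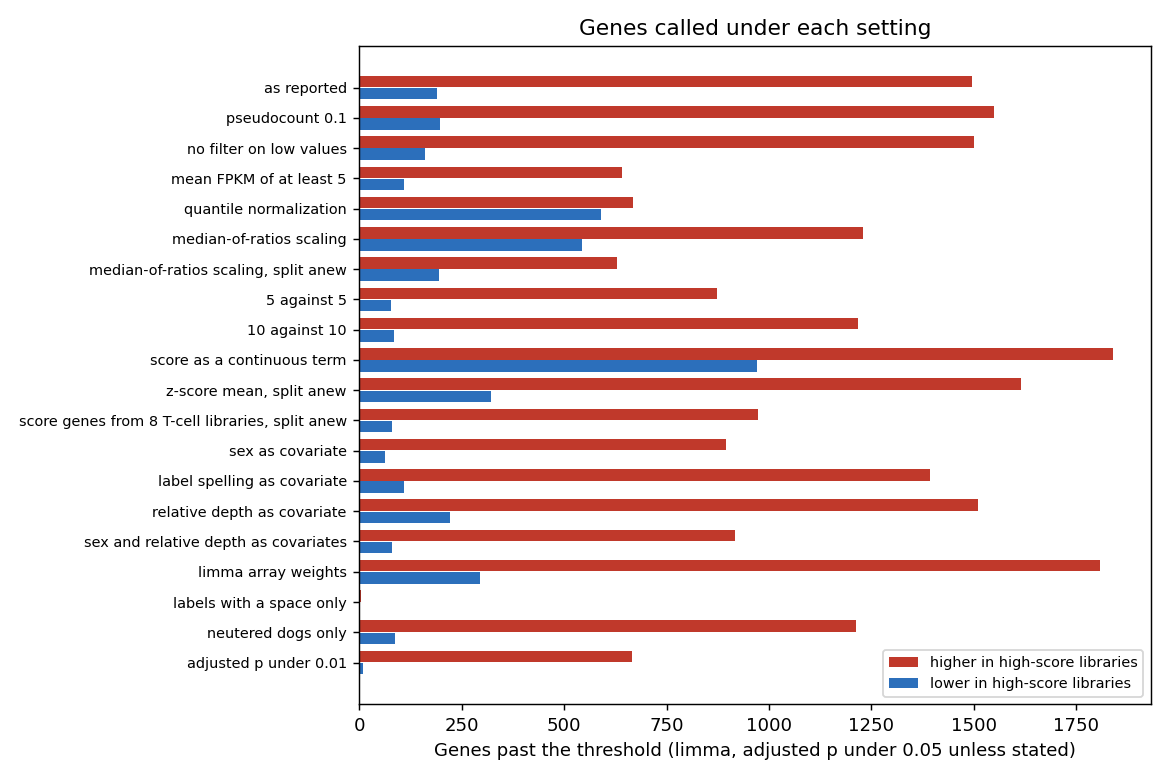
Number of genes past the threshold, higher (red) or lower (blue) in high-score than in low-score libraries, under each setting. Bars run from 1495 and 189 as reported to 667 and 589 with quantile normalization and 5 and 2 among libraries with a space in the label.

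In the deposited values, genes that rose tended to be of lower abundance than all tested genes, and genes that fell of higher abundance. The median of the mean FPKM over the 14 libraries was 4.96 for genes that rose and 23.4 for genes that fell, against 13.4 for all tested genes. Under 1 FPKM, 145 of 679 genes (21.4%) rose and 0 fell. A gene with so low a mean was tested only where 5 or more of the 29 libraries reached 1 FPKM. Its place in this bin can thus rest on the libraries in which it is high, which favours genes that rose. Between 1 and 5 FPKM, 605 of 2300 genes (26.3%) rose and 11 fell. From 5 to 20 FPKM, 514 of 4153 genes (12.4%) rose and 67 (1.61%) fell. Between 20 and 100 FPKM, 203 of 3584 genes (5.66%) rose and 97 (2.71%) fell. Above 100 FPKM, 28 of 718 genes (3.90%) rose and 14 (1.95%) fell. Of the genes that rose, 0 were listed at 0 in all 7 low-score libraries. A pseudocount of 1 understates the change of genes near 1 FPKM.

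Separation without overlap was seen for fewer genes. For 416 genes (3.64% of genes tested) every high-score library lay above every low-score library, and for 25 (0.219%) every high-score library lay below. Of these, 412 and 20 also passed the limma test.

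Each tested gene was then placed by its difference between T-cell tumours and the 6 B-cell tumours between the sets, libraries that the high against low test did not use. In that comparison 2922 genes differed (25.6%; limma adjusted p under 0.05), 1715 higher in T-cell (15%, here class T-higher) and 1207 higher in B-cell tumours (10.6%, class B-higher). Among T-higher genes 663 of 1715 (38.7%) rose in high-score tumours and 0 fell. Among B-higher genes 4 of 1207 (0.331%) rose and 91 (7.54%) fell. Among the 8512 genes that passed in neither direction 828 (9.73%) rose and 98 (1.15%) fell. The median log2 change was 0.55 for T-higher, -0.25 for B-higher and 0.05 for the other genes. It was thus above 0 for the T-higher and below 0 for the B-higher genes. Quantile normalization gave 0.39, -0.32 and -0.06, and median-of-ratios scaling 0.55, -0.35 and -0.04. The shares depended on scaling. With quantile normalization 24.1% of T-higher genes rose, 14.4% of B-higher genes fell, and of the other genes 4.57% rose and 4.02% fell. With median-of-ratios scaling 37.04% of T-higher genes rose, 17.5% of B-higher genes fell, and of the other genes 8.58% rose and 3.15% fell. The T-cell libraries also chose the score genes, so the T-higher genes left in the test resemble them in how they were defined. Without B-cell library 20, 1117 genes were T-higher in place of 1715.

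The change in high-score tumours grew with the difference between the classes on the T-cell side, and no such gradient was seen on the B-cell side. For genes from 0 to 0.5 higher in T-cell tumours on the log2 scale, the median change between high-score and low-score tumours was 0.11. It was 0.53 for genes from 0.5 to 1 higher, 0.80 for genes from 1 to 2 higher, and 1.04 for the 157 genes more than 2 higher (quartiles 0.64 and 1.38). On the B-cell side the median was -0.12 from -0.5 to 0, -0.23 from -1 to -0.5, -0.13 from -2 to -1 and -0.24 for the 84 genes below -2. In the bin farthest to the T-cell side 87 genes (55.4%) rose, and in the bin farthest to the B-cell side 5 (5.95%) fell. With quantile normalization 33 of 127 genes (25.98%) rose in the first, with a median change of 0.72, and 6.73% fell in the second. With median-of-ratios scaling these shares were 54.7% and 10.3%, and the median change in the first was 0.98. For genes from 1 to 2 higher, 26.7% rose with quantile normalization, so that share did not grow into the farthest bin. The T-cell libraries also chose the score genes that ranked the sets, so a gradient on the T-cell side is not independent of the split. The bins hold no score genes, which are those with every T-cell library above every B-cell library.

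**Figure D3:**
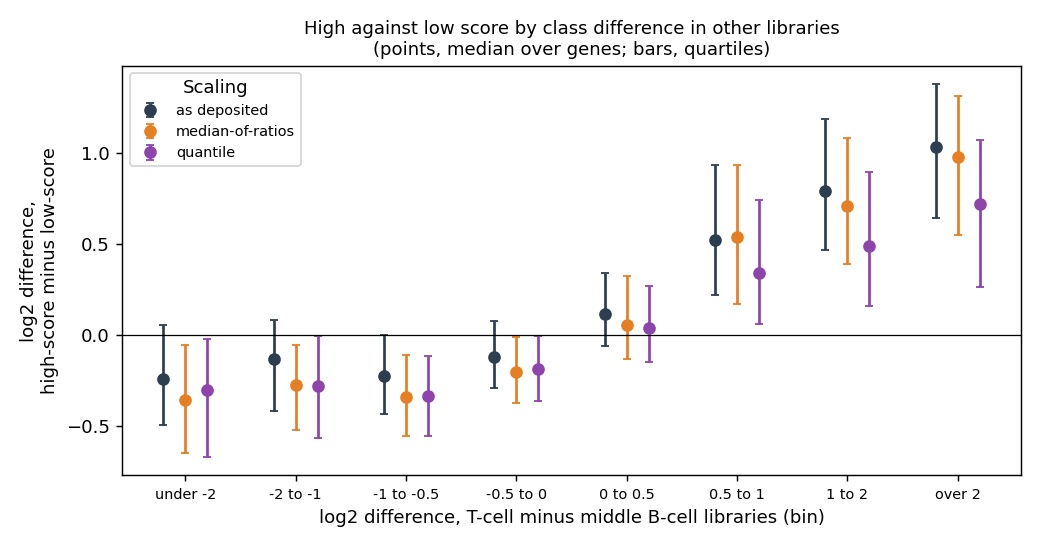
Change between high-score and low-score tumours (vertical, log2) for genes binned by their difference between T-cell tumours and the 6 B-cell tumours between the sets (horizontal, log2), under 3 scalings, with medians as points and quartiles as bars. The median as deposited climbs to 1.04 in the bin farthest to the T-cell side and stays between -0.12 and -0.24 in the bins on the B-cell side.

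Of the 1495 genes that rose, 828 were of neither class. They had a median of mean FPKM of 7.60 in high-score, 2.56 in low-score and 7.44 in T-cell tumours. For 576 of them (69.6%) the mean log2 level in T-cell tumours was below that in high-score B-cell tumours. Among the 663 T-higher genes that rose this was so for 98 (14.8%), and their median of mean FPKM was 6.77 in high-score, 2.19 in low-score and 10.8 in T-cell tumours. The same T-cell libraries sorted the genes into classes, and the same high-score libraries served to call them. The contrast of 69.6% with 14.8% is therefore partly set by these definitions. A gene of neither class did not pass the test in 9 against 6 libraries, which does not show that it is equal in the classes: the median difference of the 828 genes was 0.55 towards T-cell tumours. Of the 828, 311 were called higher under all 3 scalings, and of the 663, 293.

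The genes that fell had the reverse order. Low-score above high-score follows from how these genes were called. The same T-cell libraries defined the B-higher class, so the low T-cell level of that class is partly set by its definition. The 91 B-higher genes that fell had a median of mean FPKM of 22.7 in high-score, 39.6 in low-score and 16.5 in T-cell tumours. The 98 genes of neither class that fell stood at 14.7, 23.8 and 15.03 FPKM in the same groups. Of the 91, 83 were called lower under all 3 scalings, and of the 98, 93.

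In the genes that rose, the median of the 6 B-cell tumours between the sets, which took no part in the test, lay nearer to the low-score than to the high-score median. The mean log2(FPKM + 1) of the 663 T-higher genes that rose was 2.13 to 2.45 (median 2.21) in these 6 libraries. It was 1.71 to 2.14 (median 1.93) in the low-score and 2.56 to 3.29 (median 2.97) in the high-score libraries. The 828 genes of neither class gave 2.34 to 2.72 (median 2.42) between the sets, 1.87 to 2.32 (median 2.19) in low-score and 2.67 to 3.46 (median 3.23) in high-score libraries. With median-of-ratios scaling the medians of the 663 genes were 2.24 between the sets, 2.02 in low-score and 2.90 in high-score libraries, and with quantile normalization 2.30, 2.20 and 2.86. B-cell library 2 was the exception among the 6, at 2.45 and 2.72, slightly nearer to the high-score median in both gene groups and, in the genes of neither class, within the high-score range. The separation of the high-score from the low-score libraries follows from how these genes were called. The order within the high-score set did not follow the score. B-cell library 17, at rank 4, had the lowest mean of the set in both gene groups, and B-cell library 8, at rank 7, had 3.25 and 3.37, close to the highest.

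The genes that fell were more evenly graded. The 91 B-higher genes that fell averaged 4.27 to 4.77 in high-score libraries, 4.84 to 5.08 in the 6 libraries between and 4.96 to 5.57 in low-score libraries. B-cell library 5, which has the lowest score and the highest summed FPKM of all libraries (677096), was the highest in them at 5.57. T-cell tumours averaged 3.797 to 4.26, below every B-cell library as deposited. With median-of-ratios scaling they reached 4.30 and overlapped the high-score set, whose lowest library stood at 4.19. The B-higher class was defined with these T-cell libraries, so their low position in the 91 genes is partly set by that definition. The 98 genes of neither class that fell averaged 3.72 to 4.44 in T-cell tumours, a range that overlapped the high-score libraries, at 3.82 to 4.21.

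**Figure D4:**
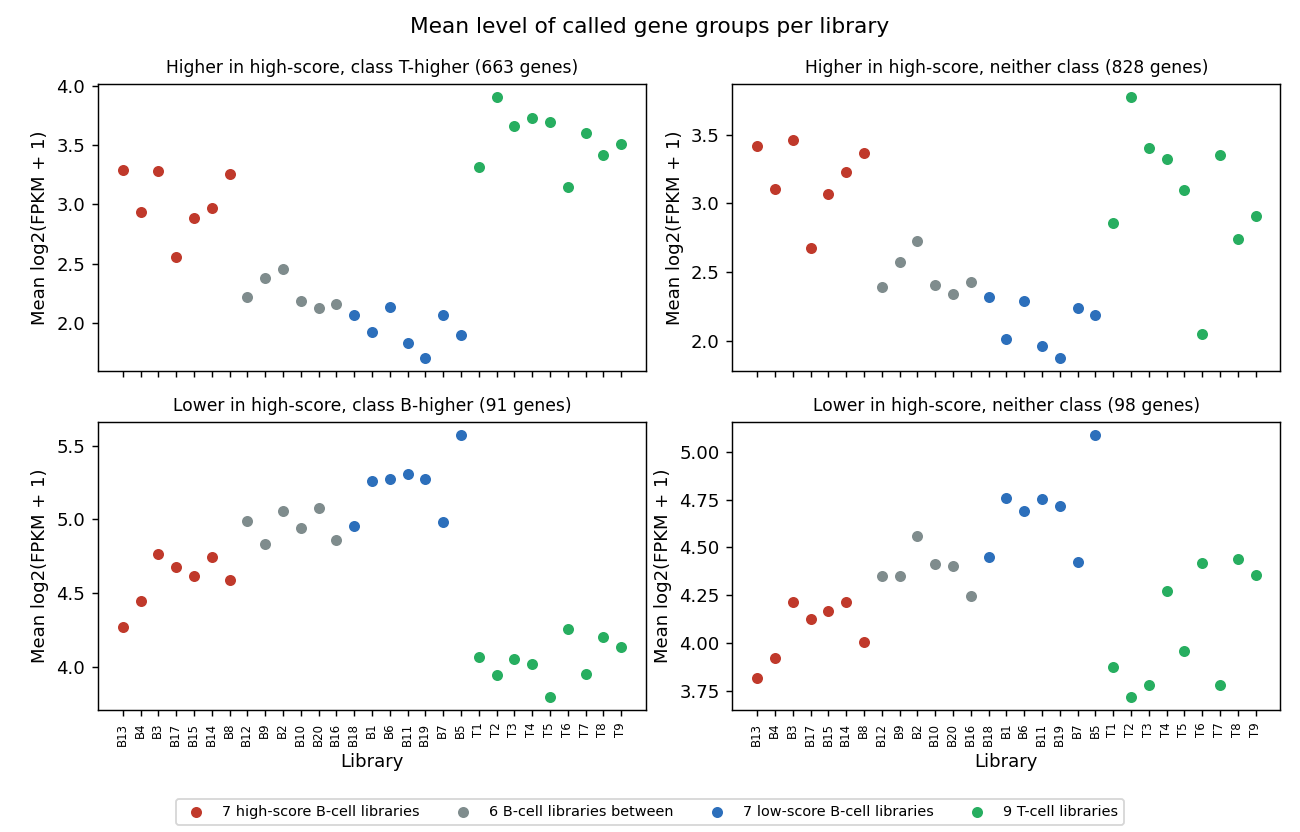
Mean log2(FPKM + 1) of 4 groups of called genes in each library, B-cell libraries in order of score and T-cell libraries by replicate number. In the upper panels the medians of the 6 libraries between the sets (grey), 2.21 and 2.42, lie nearer to those of the low-score libraries (blue), with B-cell library 2 the highest of the 6, and T-cell library 6 falls to 2.05 in the genes of neither class.

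The genes that rose varied more than genes that were not called among the T-cell tumours and the B-cell tumours between the sets, in both classes. For the 828 genes of neither class the median SD was 0.77 log2 units over the 9 T-cell libraries and 0.34 over the 6 libraries between, against 0.48 and 0.24 for the 7586 genes of neither class that were not called. For the 663 T-higher genes it was 0.63 and 0.29, against 0.44 and 0.23 for the 1052 T-higher genes that were not called. These same libraries defined the classes, and a gene with a wide spread in them is more likely to be of neither class, so the spread of that class is partly set by its definition. Abundance differed between these genes as well, as described above, and its part in the spread was not tested. Over the T-cell tumours the mean of the 828 genes ran from 2.05 in T-cell library 6, within the range of the low-score B-cell libraries (1.87 to 2.32), to 3.78 in T-cell library 2. This order was not that of the score. T-cell library 2 had the lowest score of the T-cell tumours, at 4.80, and T-cell library 8 had the highest, at 5.40, with a mean of 2.74 in these genes.

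Across all 11434 tested genes the profiles were mostly, but not always, closer to their own set. When a library was left out of its set's mean, 7 of 7 low-score libraries and 6 of 7 high-score libraries correlated better with the mean of their own set than with that of the other. The exception was B-cell library 17, whose Pearson r across genes was 0.9635 with the other high-score libraries and 0.9683 with the low-score libraries. Correlation with the mean T-cell profile ran from 0.888 over a median of 0.928 to 0.941 in high-score, from 0.911 to 0.917 in the libraries between, and from 0.854 over a median of 0.895 to 0.899 in low-score tumours. B-cell library 8 had the lowest correlation of the high-score set, below 4 of the low-score libraries. The T-cell libraries also chose the score genes by which the sets were ranked, so the order of these correlations is not independent of the split. These correlations are across genes, which are not independent replicates. The median SD of a tested gene was 0.32 log2 units in high-score and 0.41 in low-score libraries.

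The IDs with the largest changes, among called genes of at least 1 mean FPKM whose sets did not overlap (373 higher and 20 lower), were ENSCAFG00000015163 and ENSCAFG00000005096 for the genes that rose. ENSCAFG00000015163 ran from 10.6 over a median of 21.3 to 73.1 FPKM in high-score libraries and from 1.37 over a median of 3.61 to 6.11 FPKM in low-score libraries. Every high-score library was above every low-score library, with B-cell library 15 far above the rest. By limma the sets differed by 2.61 ± 0.36 log2 units (SE; adjusted p = 0.000584). In the 6 libraries between it ran from 4.49 to 18.1 FPKM. It was also higher in T-cell tumours than in those 6, by 2.46 ± 0.72 on the log2 scale (SE; limma adjusted p = 0.022), with 25.5 to 163 FPKM in 8 T-cell libraries and 1.48 FPKM in T-cell library 6.

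ENSCAFG00000005096 ran from 3.60 over a median of 9.88 to 99.5 FPKM in high-score libraries and from 0.621 over a median of 1.59 to 3.43 FPKM in low-score libraries. The sets met closely, with B-cell library 17 at 3.60 and B-cell library 6 at 3.43 FPKM. By limma the sets differed by 2.57 ± 0.51 log2 units (SE; adjusted p = 0.00364). T-cell tumours ran from 3.90 over a median of 11.4 to 31.5 FPKM, a range that overlapped the high-score B-cell tumours, and B-cell library 8 at 99.5 FPKM exceeded all of them.

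Among the genes that fell, ENSCAFG00000001899 ran from 17.8 over a median of 24.2 to 28.3 FPKM in high-score libraries and from 32.1 over a median of 37.7 to 94.4 FPKM in low-score libraries. By limma the sets differed by -0.87 ± 0.21 log2 units (SE; adjusted p = 0.0126). The libraries between, at 25.5 to 46.1 FPKM, overlapped both sets, and T-cell tumours were lower, from 7.59 over a median of 13.4 to 29.5 FPKM. It did not pass with 5 libraries against 5 (adjusted p = 0.0566) or 10 against 10 (adjusted p = 0.0646).

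ENSCAFG00000006115 ran from 23.2 over a median of 31.4 to 39.1 FPKM in high-score libraries and from 41.8 over a median of 50.4 to 92.2 FPKM in low-score libraries. By limma the sets differed by -0.82 ± 0.17 log2 units (SE; adjusted p = 0.00444). B-cell library 5 was the highest for both genes that fell. T-cell tumours ran from 20.4 over a median of 22.9 to 46.1 FPKM and overlapped the high-score set. Among libraries with a space in the label none of these 4 IDs passed, with adjusted p from 0.0586 to 0.126 and log2 changes of 2.79, 2.73, -0.68 and -0.71.

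**Figure D5:**
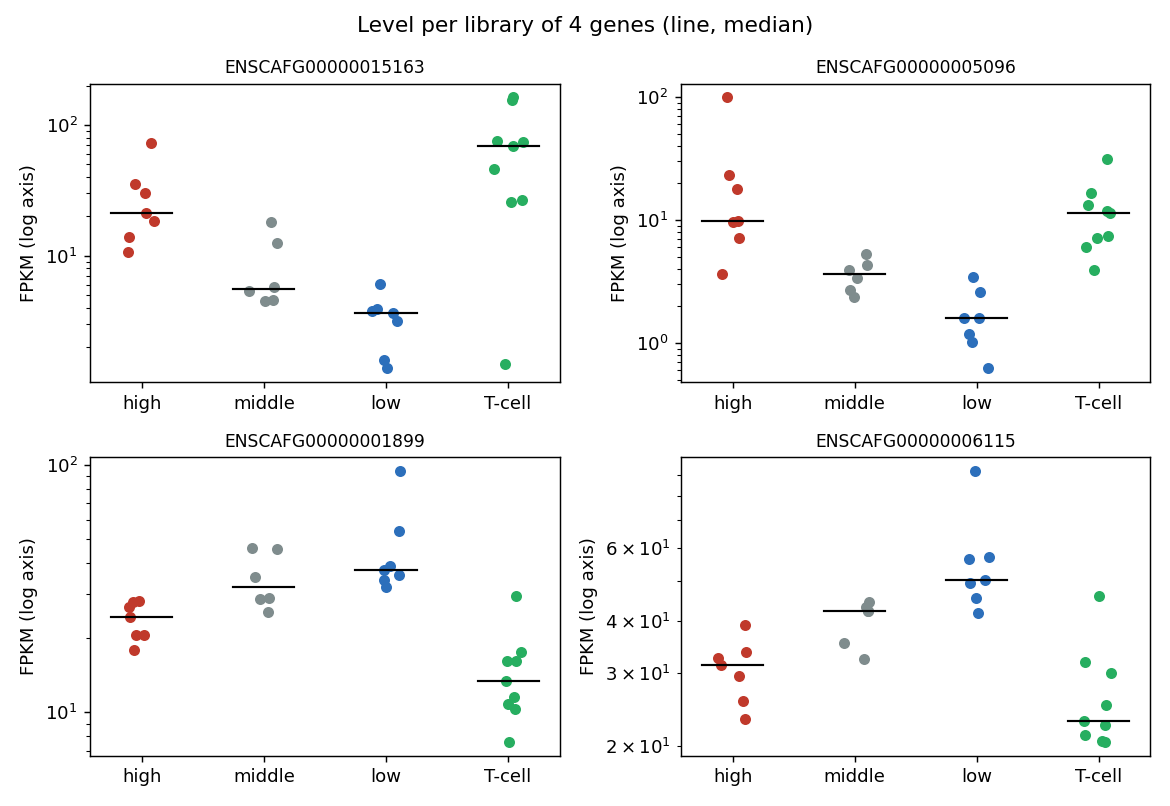
FPKM on a log axis of the 4 IDs in each library, by group, with the median as a line. High-score and low-score libraries do not overlap for any of the 4, and T-cell library 6 stands at 1.48 FPKM for ENSCAFG00000015163.

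ENSCAFG00000014395, whose level varied widely over B-cell tumours, did not differ detectably between the sets. It ran from 3.17 over a median of 598 to 2020 FPKM in high-score and from 5.93 over a median of 113 to 1150 FPKM in low-score libraries, so both sets spanned low and high levels (log2 change -0.03, SE 1.57, limma adjusted p = 0.992). For the median gene the 95% interval of the change, not adjusted for the number of genes, reached 0.44 log2 units to either side. Passing the adjusted threshold took a larger change for such a gene. Changes of this size or smaller were mostly not detectable with 7 libraries against 7.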

How the data were processed

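FPKM values per Ensembl gene were made and deposited by the authors. The build CanFam3.1 and the tools TopHat 1.4.1, FastQC 0.11.2 and Cuffdiff are named in the submitters' processing notes, without roles, annotation release or scaling. Of 78 columns, the 29 named as sample titles were used and 49 were not. No counts were used.

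Libraries were numbered within phenotype in accession order. The score genes, the sets and the gene lists were chosen with earlier results of these data known. The 19 gene lists, the cell type markers and the named genes by symbol could not be used, because 0 IDs matched a symbol. The rule then took, in each direction, the 2 called IDs with the largest log2 change, at least 1 mean FPKM and sets that did not overlap. ENSCAFG00000014395 was added after its values were seen.

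A filter of 1 FPKM or more in 5 or more of 29 libraries left 11552 genes, less 118 score genes. R 4.3.3 and limma 3.58.1 were used to fit log2(FPKM + 1) with a variance trend and robust moderation, without covariates, two-sided, with Benjamini-Hochberg adjustment and a threshold of 0.05. The fit was tested on simulated data. Single measures used exact permutation tests in Python 3.11.15. Relative depth came from the most frequent ratio of FPKM below 0.2 between 2 libraries, and 100.0% of 812 ordered pairs lay within 0.05 log2 units of the fitted ratio. No 2 libraries were alike, with a highest correlation of 0.9776. Alternatives covered pseudocount, filter, scaling, score, set size, covariates, weights and libraries left out.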

Additional observations from a re-analysis of the deposited data

Results flagged for a closer look

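Within each set a library was singled out where its gap to the nearest other library, divided by the range of the set, exceeded Dixon's 95% critical value. Of 64 groups of values examined, 8 were singled out, where chance singles out about 1 in 20. In high-score tumours B-cell library 15 stood at 73.12 FPKM for ENSCAFG00000015163, with the next at 35.31, and B-cell library 8 at 99.47 FPKM for ENSCAFG00000005096, with the next at 23.08. In low-score tumours B-cell library 5 stood at 94.45 FPKM for ENSCAFG00000001899, with the next at 54.17, and at 92.22 FPKM for ENSCAFG00000006115, with the next at 57.04. In T-cell tumours library 2 stood at 31.52 FPKM for ENSCAFG00000005096, library 6 at 29.47 FPKM for ENSCAFG00000001899 and library 9 at 46.09 FPKM for ENSCAFG00000006115. Among the B-cell tumours between the sets, the dog of B-cell library 2 was 14 years old, with the next at 7.2 years. FPKM was examined on its own scale, on which a high library stands farther apart than on a log scale.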

How the results depend on the processing

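Of 19 alternatives other than leaving out a library, 10 kept the total of 1684 genes within 1.5 times, 10 the 1495 higher and 4 the 189 lower. Total, higher and lower were 749, 641 and 108 with a mean FPKM of at least 5, 950, 874 and 76 with 5 against 5, 1052, 973 and 79 with score genes from 8 T-cell libraries, 958, 895 and 63 with sex as covariate, 998, 918 and 80 with sex and relative depth, 7, 5 and 2 in labels with a space, and 675, 666 and 9 at an adjusted p under 0.01. Quantile normalization gave 667 higher and 589 lower. Median-of-ratios scaling gave 543 lower, and with the libraries split anew 823 in all and 629 higher. The score as a continuous term over 20 libraries gave 2811 in all and 971 lower. Lower genes numbered 85 with 10 against 10, 321 with z-scores, 108 with label spelling, 295 with array weights and 87 in neutered dogs. The sets split anew shared 6 or 7 of 7 libraries with the sets used, on each side. Leaving out each library gave 1132 to 1836 in all, 1074 to 1642 higher and 58 to 373 lower. For T-cell against the middle B-cell libraries it gave 1977 to 3940 in all, 1117 to 2453 higher and 860 to 1487 lower, and quantile normalization gave 1106 higher. ENSCAFG00000015163, ENSCAFG00000005096 and ENSCAFG00000006115 passed in 31 of 32 alternatives and ENSCAFG00000001899 in 29, and all 4 kept their direction in each. The stricter threshold of 0.01 is not among the 32, and ENSCAFG00000001899 did not reach it (limma adjusted p = 0.0126). These 4 were picked for large changes without overlap in the same libraries. In fits on a part of the 14 libraries, without covariates, their direction could not reverse. Fewer libraries, fewer genes or a stricter threshold define some alternatives; for the others the cause was not tested. The label with a space, neutered dogs and the pair of covariates were chosen after the data were examined. No paired analysis was possible because the libraries carry no shared replicate numbers. Without fragment counts, levels near 0 FPKM carry no counting error.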
